A study of Homo sapiens with 3 samples.

Results

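Cholesterol and fatty acid synthesis were followed through 31 genes, chosen by symbol from a table of 29960 genes. They comprised 7 genes of the sterol pathway from acetyl-CoA to farnesyl diphosphate, 10 genes of squalene and sterol formation, 5 genes of SREBP regulation and sterol transport, 4 genes of fatty acid synthesis and 5 genes of fatty acid desaturation and elongation. The cells were of 5637, an established human bladder cancer line grown in RPMI with 10% FBS. One group was the parental line (genotype WT in the labels, 1 library used here) and the other its gemcitabine-resistant derivative, 5637GR (genotype Gemcitabine Resistant, 2 libraries used here). Every library is labelled untreated, so no drug was given at harvest, and the labels state no knockout, transgene or other agent in either group. The labels call the gemcitabine exposure that made the resistant cells acute, whereas the study's methods describe repeated exposure at rising doses followed by culture without the drug. The methods also state that single-cell clones were sequenced, with 3 clones per group in the paper, so each library stands for 1 clone and all clones descend from 1 line.

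Cells make cholesterol and unsaturated fatty acids from acetyl-CoA, and both routes are known to be driven by the SREBP transcription factors. When membrane sterol is low, SCAP escorts the SREBP precursors to the Golgi, where they are cleaved to release the active factor. When sterol is plentiful, INSIG proteins hold the complex in the endoplasmic reticulum and the target genes are transcribed less. SREBPs bind sterol regulatory elements in promoters, commonly together with NF-Y, which binds CCAAT boxes.

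Read counts on genes totalled 14475531 in the parental library and 15836788 and 17461941 in resistant libraries 1 and 2. All 31 genes were among the 15643 genes that passed the filter on low counts, and they held between 129 and 28091 reads each. The 10 urothelial or epithelial markers examined were all detected, and their summed level was 6011 CPM (read counts scaled by TMM to a common library size) in the parental library against 3993 and 3022 CPM in the resistant ones. KRT8 and KRT7 were the largest of these markers, and both were lower in each resistant library. KRT8 was read at 2274, 1667 and 1016 CPM (parental, resistant 1, resistant 2), and KRT7 at 1989.5, 1048 and 869 CPM. KRT5, a basal keratin, was read at 272, 9.79 and 13.8 CPM. EPCAM, at 285, 338 and 291 CPM, and CDH1, at 341, 398 and 321 CPM, were not lower in both. Markers of leukocytes summed to at most 0.796 CPM, those of endothelium to at most 0.865 CPM, and those of hepatocytes and adipocytes to at most 0.568 CPM. Of the fibroblast markers, COL1A1 was read at 113, 96.9 and 61.3 CPM, LUM held no read, and COL3A1 and PDGFRB held at most 4 reads in any library. The part of the keratin difference in the values of the synthesis genes was not tested.

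The synthesis genes were lower in the resistant libraries than in the parental library as a list, by modest amounts, and no single gene passed the test after correction. By the fitted log2 fold change, 26 of the 31 genes were lower and 5 were higher, with a median of -0.53 beside 0.03 over all genes tested. Both resistant libraries lay below the parental library for 24 of the 31 genes (77.4%), where 34.5% of all genes did so. Both lay above it for 1 gene, PMVK (3.23%), where 35.2% of all genes did so, and for 6 genes the parental library lay between the resistant ones. Both comparisons share that parental library, which stands for 1 clone, so a high level in this clone alone would lower both ratios. Whether the clone is typical of the parental line was not tested, and the list was chosen with earlier results known. In cultured cells, fewer cells of one state and less RNA per cell cannot be told apart.

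No synthesis gene had an adjusted p under 0.05 in either direction in edgeR's quasi-likelihood test with Benjamini-Hochberg adjustment, where 0.582% of all genes were called lower and 0.294% higher. At an unadjusted p under 0.05, 11 of the 31 were lower (35.5%) and none was higher, against 4.85% of all genes lower and 4.85% higher. DESeq2, run as an alternative, called 3 of them lower, namely LSS, SQLE and FADS2, and none higher, against 0.831% of all genes lower and 0.798% higher. The libraries themselves leave 1 residual degree of freedom, the spread between the 2 resistant libraries, to which edgeR added 8.94 prior degrees of freedom from the spread over all genes. The variance behind each p-value is thus mostly shared between genes, and the parental line is assumed to vary as the resistant one does. Standard errors of the 31 log2 fold changes ran from 0.34 to 0.49.

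The authors' group means, which carry no SD and include the libraries described here, were placed beside the fit. By these means 25 of the 31 genes were lower in the resistant line and 6 were higher, with a median log2 ratio of -0.42 beside 0.02 over all genes. At least 1.5-fold lower were 9 genes (29.0%), against 9.69% of all genes. These were HMGCS1, IDI1, SQLE, LSS, MSMO1, NSDHL, DHCR7, FADS1 and FADS2. None was at least 1.5-fold higher, against 10.6% of all genes. The fit and the means had the same sign in 28 of the 31 genes, the exceptions being HSD17B7, SREBF1 and ACLY, all with fitted values close to 0.

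**Figure D1:**
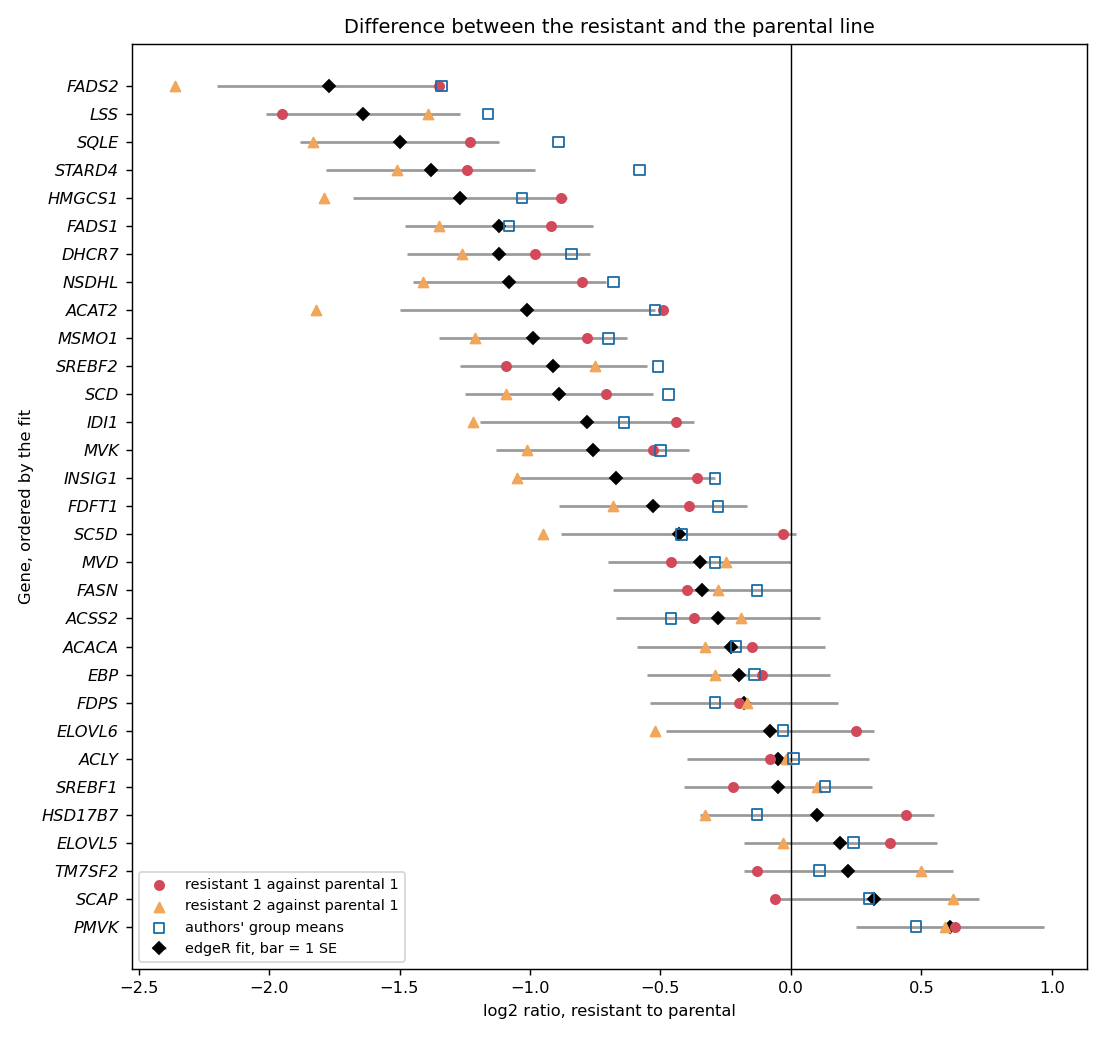
Log2 ratio of the resistant to the parental line (horizontal axis) for each of the 31 genes (rows, ordered by the fit). Circles and triangles are resistant libraries 1 and 2 against the parental library, open squares the authors' group means, and diamonds the edgeR estimate with a bar of 1 SE. The estimates run from -1.77 for FADS2 to 0.61 for PMVK, and 26 of 31 lie left of 0.

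The synthesis genes were strongly expressed in this line. Their median level in the parental library was 30.1 FPKM, a read count scaled for gene length and library depth, against 5.58 over all genes tested. On the same per-length scale they ranged over the 3 libraries from 1.6 FPKM, for STARD4 in resistant library 2, to 224 FPKM, for FASN in the parental library. Summed over the list, they amounted to 6969 CPM in the parental library and to 4994 and 4829.9 CPM in the resistant libraries, or 0.678%, 0.515% and 0.48% of the counted reads. The summed level was thus lower in both resistant libraries, which lay close to each other.

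**Figure D2:**
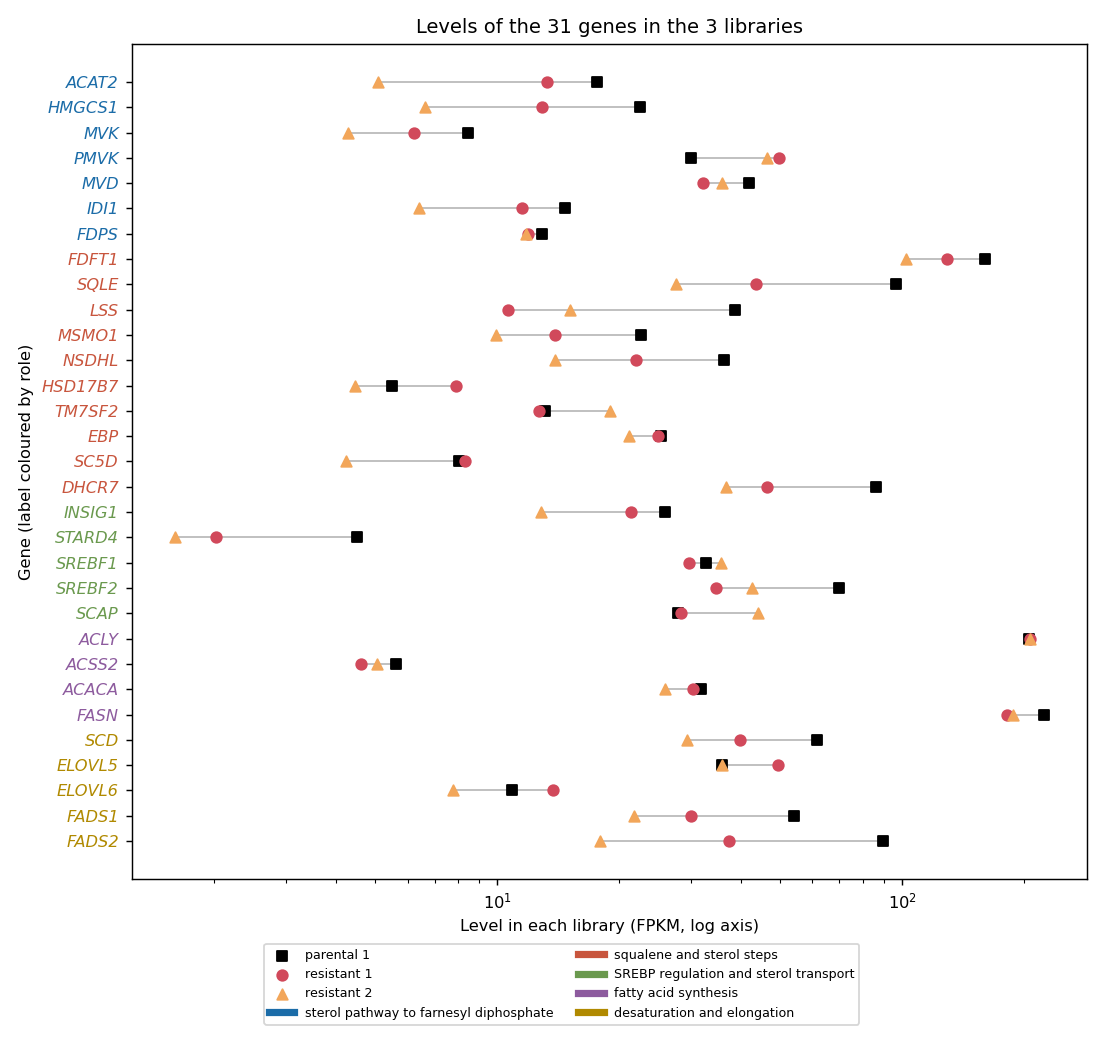
Level of each of the 31 genes in FPKM (horizontal log axis) in the parental library (squares) and in resistant libraries 1 (circles) and 2 (triangles). Gene labels are coloured by role, and the grey line joins the lowest and highest library. FASN, ACLY and FDFT1 were the highest genes at 224, 206 and 159.8 FPKM in the parental library, and STARD4 the lowest at 4.51 FPKM.

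The promoters of the genes were searched for the letters of the sterol regulatory element and of the CCAAT box. Windows of 300 bases, from 250 before to 50 after the annotated start, were available from RefSeq (GRCh38.p14) for 27 of the 31 genes. A CCAAT box on either strand was present in 22 of these 27 genes (81.5%), whereas 39.7% of all 27305 genes with a window and 43.1% of the 10128 such genes tested here held one. By window rather than by gene, it was present in 26 of 37 windows of the synthesis genes and in 34.6% of all 35116 windows. The sterol regulatory element was searched as TCACNCCAC on both strands, and it did not overlap the CCAAT box in the gene that held both. It occurred in full in SREBF2 alone (3.7% of the 27, against 1.39% of all genes), and with up to 1 mismatch in 15 of the 27 (55.6%, against 28.2%). A match of letters is a description of the window and not a bound site.

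The 5 windows printed here are those of LSS, FADS2, DHCR7 and HMGCS1, which were among the lowest genes of the list in the resistant line, and of SREBF2, the one gene with the full element. Capitals mark CCAAT, or ATTGG where the box is on the opposite strand, and in SREBF2 also TCACCCCAC. Each sequence is written 5′ to 3′ on the strand of its gene. LSS is taken from chr21:46228725-46229024 (minus strand), FADS2 from chr11:61816154-61816453 (plus strand), DHCR7 from chr11:71448344-71448643 (minus strand), HMGCS1 from chr5:43313363-43313662 (minus strand) and SREBF2 from chr22:41832855-41833154 (plus strand).
LSS: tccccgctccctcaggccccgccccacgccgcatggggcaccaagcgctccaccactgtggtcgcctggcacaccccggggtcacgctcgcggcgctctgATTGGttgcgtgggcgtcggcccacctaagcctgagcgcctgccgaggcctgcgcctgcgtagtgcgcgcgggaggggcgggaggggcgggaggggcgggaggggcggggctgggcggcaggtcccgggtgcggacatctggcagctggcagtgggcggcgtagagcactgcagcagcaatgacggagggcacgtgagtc
FADS2: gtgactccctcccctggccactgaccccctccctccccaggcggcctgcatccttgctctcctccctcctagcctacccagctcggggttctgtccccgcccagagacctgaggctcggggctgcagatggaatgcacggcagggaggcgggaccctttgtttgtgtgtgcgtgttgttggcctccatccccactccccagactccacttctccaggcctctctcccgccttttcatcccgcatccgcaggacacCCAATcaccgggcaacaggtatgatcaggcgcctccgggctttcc
DHCR7: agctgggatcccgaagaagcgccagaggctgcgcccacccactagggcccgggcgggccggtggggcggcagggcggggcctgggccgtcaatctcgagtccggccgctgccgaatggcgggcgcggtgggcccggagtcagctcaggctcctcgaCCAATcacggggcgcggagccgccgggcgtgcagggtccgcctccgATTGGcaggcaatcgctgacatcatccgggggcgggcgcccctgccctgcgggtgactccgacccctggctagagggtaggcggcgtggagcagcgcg
HMGCS1: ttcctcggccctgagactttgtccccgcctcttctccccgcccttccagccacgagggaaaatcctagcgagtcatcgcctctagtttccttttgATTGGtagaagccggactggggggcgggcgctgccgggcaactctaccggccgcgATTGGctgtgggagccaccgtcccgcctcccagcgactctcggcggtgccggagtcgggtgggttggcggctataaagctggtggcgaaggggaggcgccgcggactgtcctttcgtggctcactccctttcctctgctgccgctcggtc
SREBF2: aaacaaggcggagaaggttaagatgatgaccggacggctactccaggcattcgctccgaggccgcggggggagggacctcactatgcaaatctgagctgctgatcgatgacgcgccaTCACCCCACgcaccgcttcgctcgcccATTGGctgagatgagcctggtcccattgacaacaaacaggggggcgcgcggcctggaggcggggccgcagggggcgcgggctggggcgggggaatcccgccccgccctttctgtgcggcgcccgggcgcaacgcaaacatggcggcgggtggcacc

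DHCR7 and HMGCS1 each held 2 boxes, at 94 and 48 bases before the start in DHCR7 and at 155 and 100 in HMGCS1. LSS held 1 box 150 bases before its start, and the box of FADS2 lay just after the start. In SREBF2 the full sterol regulatory element lay 133 bases before the start and the box 106 bases before it. Over the 22 genes there were 49 boxes, 33 on the reverse and 16 on the forward strand, with a median position of 120 bases before the start, and 15 genes held at least 2. Where a gene had several windows, the one with most boxes was used, which raises these counts. The number of boxes per gene was not counted over all genes, so it has no comparison here. The 22 genes with a box had a median log2 fold change of -0.71, ranging from -1.77 to 0.22. The 5 without one, which are ELOVL6, FADS1, PMVK, SCAP and SREBF1, had a median of -0.05 with a range from -1.12 to 0.61, so that the ranges overlapped. The difference between genes with and without a box was not tested, and the same split was not made over all genes.

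**Figure D3:**
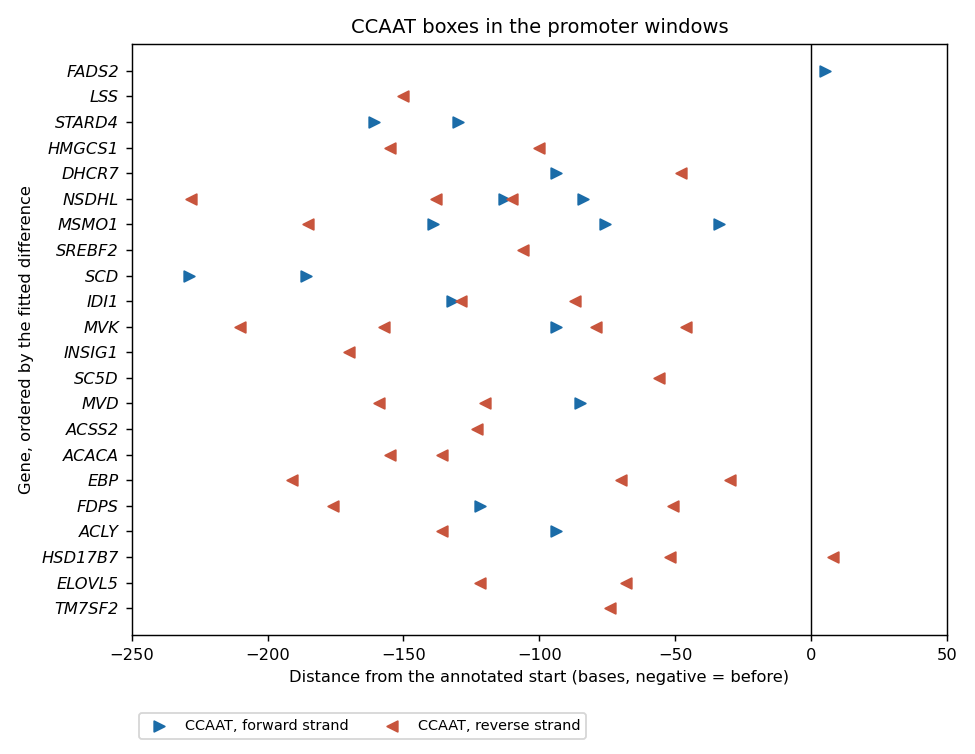
Position of each CCAAT box in the promoter windows of the 22 genes that hold one (rows, ordered by fitted difference), as distance from the annotated start in bases (horizontal axis, negative before the start). Arrowheads give the strand, and the 49 boxes have a median position of 120 bases before the start.

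The first enzymes of the pathway carry acetyl-CoA to farnesyl diphosphate, the branch point for sterols and other isoprenoids. Of these 7 genes, 6 were lower in both resistant libraries (85.7%, against 34.5% of all genes). In both, 1 was higher (14.3%, against 35.2% of all genes), and the median log2 fold change was -0.76. That median was -0.50 by the authors' group means, -0.49 relative to the other genes in the same 10-Mb windows, and -0.46 without resistant library 2. Their summed level was 377 CPM in the parental library and 294 and 241 CPM in the resistant libraries. At an unadjusted p under 0.05 (edgeR) stood 1 of the 7, HMGCS1 (14.3%, against 4.85% of all genes lower).

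HMGCS1 (ENSG00000112972, chromosome 5, 43289497 to 43313614, minus strand, hg19) encodes the cytosolic enzyme that forms HMG-CoA. It held 1140 reads in the parental library and 718 and 406 in resistant libraries 1 and 2, or 81.0, 43.9 and 23.4 CPM. The parental library lay above both resistant libraries, which themselves differed by 0.91 on the log2 scale. The fitted log2 fold change was -1.27 (SE 0.41), 2.41-fold lower in the resistant line, with an adjusted p of 0.3 by edgeR's quasi-likelihood test. The means given by the authors were 1017.5 (parental) and 498.2 (resistant) normalized counts.

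ACAT2 (ENSG00000120437, chromosome 6, 160181360 to 160200144, plus strand), the thiolase that joins acetyl-CoA units at the entry of the pathway, had 57.5 CPM in the parental library against 41.0 and 16.3 in resistant libraries 1 and 2. The resistant libraries were further apart for this gene than for any other of the list, by 1.33 on the log2 scale, and its log2 fold change of -1.01 (SE 0.49) had an adjusted p of 0.56 (edgeR). It overlaps SOD2 and TCP1 on the opposite strand, and the labels describe both an unstranded and a strand-specific kit without saying which was used. Between the groups' authors' means, 744.5 and 518.6 normalized counts, the ratio was 1.44-fold.

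MVK, the mevalonate kinase, stood at 35.8, 24.7 and 17.7 CPM in the parental and the 2 resistant libraries. IDI1, which interconverts the isoprenoid building blocks, stood at 34.7, 25.6 and 14.8 CPM. Both were lower in each resistant library, with log2 fold changes of -0.76 (SE 0.37) for MVK and -0.78 (SE 0.41) for IDI1. MVK overlaps MMAB on the opposite strand, a gene whose own log2 fold change was -0.85. MVD, the mevalonate diphosphate decarboxylase, stood at 101, 73.6 and 84.9 CPM, and FDPS, the farnesyl diphosphate synthase, at 26.9, 23.3 and 23.9 CPM. For FDPS the difference of -0.18 was smaller than its SE of 0.36.

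PMVK (ENSG00000163344, chromosome 1, 154897210 to 154909467, minus strand), the phosphomevalonate kinase, was the exception in this group. It had 39.6 CPM in the parental library against 61.6 and 59.6 in the resistant ones. Both resistant libraries were higher and differed from each other by only 0.05 on the log2 scale, yet the log2 fold change of 0.61 (SE 0.36) did not pass the test, with an adjusted p of 0.67 (edgeR). The authors' group means were 597.0 and 835.1 normalized counts, 1.4-fold higher in the resistant line. PMVK is the one member of this list with both resistant libraries above the parental one.

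The next 10 genes turn farnesyl diphosphate into squalene, close the ring and trim it to cholesterol. Of these, 8 were lower in both resistant libraries (80.0%, against 34.5% of all genes). The other 2 had the parental library between the resistant ones, and the median log2 fold change was -0.76. Their summed level was 1318 CPM in the parental library and 747 and 629 CPM in the resistant libraries. At an unadjusted p under 0.05 stood 5 genes, all lower, which were SQLE, LSS, MSMO1, NSDHL and DHCR7, and the same 5 were at least 1.5-fold lower by the authors' group means.

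LSS (ENSG00000160285, chromosome 21, 47608055 to 47648738, minus strand) encodes lanosterol synthase, which folds the linear precursor into the first sterol. It held 2762 reads in the parental library against 829 and 1301 in the resistant libraries, or 196, 50.7 and 75.0 CPM. Both resistant libraries were far below the parental one, and here library 1 was the lower. The log2 fold change was -1.64 (SE 0.37), 3.12-fold lower, with an adjusted p of 0.089 by edgeR's quasi-likelihood test, the smallest of the list. The authors' group means were 2170.9 and 972.0 normalized counts, a 2.23-fold difference.

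SQLE, squalene epoxidase, catalyses the step before LSS and is regarded as a rate-limiting enzyme of the pathway. It held 4143 reads in the parental library and 2043 and 1433 in the resistant libraries, or 294, 125 and 82.6 CPM. Both resistant libraries used here were under the parental library, with a log2 fold change of -1.50 (SE 0.38) and an adjusted p of 0.14 (edgeR). By the authors' group means, 3031.3 and 1629.7 normalized counts, the difference was smaller, at 1.86-fold against 2.83-fold in the fit.

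DHCR7, which reduces the last intermediate to cholesterol, stood at 237, 119.9 and 98.5 CPM. NSDHL and MSMO1 act together in removing methyl groups from the sterol ring. NSDHL stood at 71.8, 41.1 and 27.0 CPM and MSMO1 at 52.7, 30.5 and 22.7 CPM. In all 3 genes the parental library was the highest and resistant library 2 the lowest, and the log2 fold changes were -1.12 (SE 0.35), -1.08 (SE 0.37) and -0.99 (SE 0.36) in the same order. FDFT1, the squalene synthase, was the most highly expressed gene of this group at 358, 272 and 224 CPM, with a log2 fold change of -0.53 (SE 0.36).

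The remaining sterol genes had smaller ratios. EBP, a sterol isomerase, stood at 46.1, 42.8 and 37.6 CPM. SC5D, a sterol desaturase, stood at 20.3, 19.8 and 10.4 CPM, so that resistant library 1 stood close to the parental library while library 2 was lower, and the resistant libraries differed by 0.92 on the log2 scale. Its log2 fold change was -0.43 (SE 0.45), with an adjusted p of 0.89 (edgeR). HSD17B7, a sterol ketoreductase, stood at 14.3, 19.5 and 11.4 CPM, and its near-identical pseudogene HSD17B7P2 was listed at 33, 39 and 41 reads, so reads may have been shared between them. TM7SF2, a sterol reductase, stood at 28.3, 25.8 and 40.1 CPM, with a log2 fold change of 0.22 (SE 0.40) and an adjusted p of 0.95 (edgeR). It overlaps VPS51 on the same strand, and resistant library 1 lay below the parental library while library 2 lay above it.

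The SREBP regulators and the sterol carrier were mixed. Of these 5 genes, 3 were lower in both resistant libraries (60.0%, against 34.5% of all genes) and 2 were not. The median log2 fold change was -0.67. That median was -0.29 by the authors' group means, and -0.36 without resistant library 2. Their summed level was 794 CPM in the parental library and 519 and 652 CPM in the resistant libraries.

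SREBF2 (ENSG00000198911, chromosome 22, 42229109 to 42303312, plus strand) encodes the SREBP that mainly drives sterol genes. It held 5772, 3135 and 4228 reads in the parental and the 2 resistant libraries, or 410, 192 and 244 CPM. Both resistant libraries were lower, with a log2 fold change of -0.91 (SE 0.36) and an adjusted p of 0.43 (edgeR). By the authors' group means, 4714.6 and 3317.7 normalized counts, SREBF2 was 1.42-fold lower, against 1.88-fold in the fit. SREBF1, whose products mainly drive fatty acid genes, stood at 156, 134 and 167 CPM, with the parental library between the resistant ones and a log2 fold change of -0.05 (SE 0.36). The difference between SREBF2 and SREBF1 was not tested.

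STARD4 (ENSG00000164211, chromosome 5, 110831731 to 110848288, minus strand), a carrier that moves cholesterol between membranes, had 21.4 CPM in the parental library against 9.0 and 7.44 in the resistant ones, from 301, 147 and 129 reads. The resistant libraries were close to each other and below the parental one. Its log2 fold change was -1.38 (SE 0.40), 2.6-fold lower, with an adjusted p of 0.22 (edgeR), and its ratio of 242.0 to 161.8 in the authors' group means was just short of 1.5-fold. STARD4-AS1, an overlapping antisense gene, was also lower in both resistant libraries, at 119, 21 and 51 reads, and reads of the pair cannot be told apart without strand.

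INSIG1, the sterol-dependent anchor of SCAP and itself an SREBP target, stood at 80.5, 62.5 and 38.7 CPM, lower in both resistant libraries. Its log2 fold change was -0.67 (SE 0.38), or -0.29 by the authors' group means. SCAP (ENSG00000114650, chromosome 3, 47455203 to 47518616, minus strand) stood at 126, 121 and 195 CPM. Only resistant library 2 was above the parental library for SCAP, and the log2 fold change of 0.32 (SE 0.40) had an adjusted p of 0.91 (edgeR).

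Fatty acid synthesis proper had the smallest ratios of the 5 roles. ACLY, ACSS2, ACACA and FASN were all lower in both resistant libraries, but by a median log2 fold change of only -0.26, or -0.17 by the authors' group means, and none had an unadjusted p under 0.05. The group held the largest share of the reads on the list, with a summed level of 3235 CPM in the parental library and 2678 and 2799 CPM in the resistant libraries.

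FASN, the fatty acid synthase that builds palmitate, held 27775, 24513 and 28091 reads, or 1973, 1500.3 and 1619 CPM. Its log2 fold change was -0.34, no larger than the SE of 0.34. ACLY, which splits citrate into acetyl-CoA for both routes, stood at 918, 869.6 and 904 CPM, and its log2 fold change was -0.05 (SE 0.35). On the FPKM scale, which is divided by total rather than TMM-scaled reads, ACLY was level at 206, 207 and 207. ACACA, the carboxylase that makes malonyl-CoA, stood at 326, 295 and 260 CPM, and ACSS2, which activates acetate, at 17.8, 13.7 and 15.6 CPM. ACSS2 overlaps GGT7 on the opposite strand, and SREBF1 likewise overlaps RAI1.

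The last 5 genes modify fatty acids by desaturation and elongation. They had a median log2 fold change of -0.89, or -0.47 by the authors' group means, and a summed level of 1244 CPM in the parental library against 756 and 510.3 CPM in the resistant libraries. The 3 desaturases SCD, FADS1 and FADS2 were lower in both resistant libraries (60.0% of the 5 genes, against 34.5% of all genes). Each had an unadjusted p under 0.05 (edgeR), as 4.85% of all genes had in this direction. For the elongases ELOVL5 and ELOVL6 the parental library lay between the resistant ones. None passed the adjusted test, and desaturases were not tested against elongases. Enzymes of both kinds outside the list had other values. The desaturases SCD5 and FADS3 had log2 fold changes of 0.84 (SE 0.37) and 0.39 (SE 0.37). Among the elongases, ELOVL2 and ELOVL7 were lower, at -1.69 (SE 0.79) and -0.76 (SE 0.45). ELOVL4 and ELOVL1 were higher, at 0.8 (SE 0.49) and 0.2 (SE 0.35).

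FADS2 (ENSG00000134824, chromosome 11, 61560452 to 61634826, plus strand) encodes the first desaturase of polyunsaturated fatty acid synthesis. It held 6604 reads in the parental library and 3008 and 1586 in the resistant libraries, or 469, 184 and 91.4 CPM. The resistant libraries differed by 1.01 on the log2 scale but both lay well below the parental library. The log2 fold change of -1.77 (SE 0.43), 3.41-fold lower, was the largest of the list, with an adjusted p of 0.13 by edgeR's quasi-likelihood test. The authors' group means were 5618.9 and 2216.1 normalized counts, 2.54-fold lower in the resistant line.

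FADS1 (ENSG00000149485, chromosome 11, 61567099 to 61596790, minus strand) encodes the desaturase that acts later in the same route and lies within the span of FADS2 on the opposite strand. It stood at 251, 132 and 98.6 CPM, lower in both resistant libraries, with a log2 fold change of -1.12 (SE 0.36) and an adjusted p of 0.3 (edgeR). Its authors' group means of 3476.2 and 1648.6 normalized counts gave a 2.11-fold difference. Without strand, reads of FADS1 and FADS2 may have been shared. FEN1, with a log2 fold change of -0.79, also overlaps FADS2 but on the same strand, so strand would not separate their reads.

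SCD (ENSG00000099194, chromosome 10, 102106881 to 102124591, plus strand), the desaturase that makes oleate, stood at 339, 207 and 159 CPM. Its log2 fold change was -0.89 (SE 0.36), with an adjusted p of 0.45 (edgeR). By the authors' group means SCD was 1.38-fold lower, against 1.86-fold in the fit. ELOVL5, an elongase of polyunsaturated fatty acids, stood at 113, 147 and 111 CPM, with a log2 fold change of 0.19 (SE 0.37) and an adjusted p of 0.95 (edgeR). ELOVL6, which extends palmitate, stood at 72.2, 85.9 and 50.5 CPM, with a log2 fold change of -0.08 (SE 0.40). Neither elongase differed in the same direction in both resistant libraries.

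The 2 resistant libraries were compared with each other over the same genes. Resistant library 2 lay below resistant library 1 for 21 of the 31 genes (67.7%), where 50.5% of all genes did so. Against the parental library, the median log2 ratio of the list was -0.40 in library 1 and -0.75 in library 2. The largest gaps between them were in ACAT2, FADS2 and SC5D, all lower in library 2, whereas LSS and SREBF2 were lower in library 1. By role, library 2 was lower for 8 of 10 squalene and sterol genes and for 5 of 5 desaturation and elongation genes, but for 1 of 4 fatty acid synthesis genes.

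Each gene was also set beside its neighbours on the chromosome. The median log2 fold change of the other genes within the same 10-Mb window, which held 16 to 231 genes, ran from -0.67 to 0.64 over the 31 genes and was below 0 for 11 of them. Windows around STARD4, DHCR7, SREBF2 and LSS had medians of -0.67, -0.55, -0.50 and -0.41, that around FADS1 and FADS2 -0.32, and that around SQLE -0.23. HMGCS1, NSDHL, SCD and MSMO1 lay in windows with medians of 0.14, 0.13, 0.14 and 0.02. Of the 31 genes, 26 were below the median of their own window, and after its subtraction the median of the list was -0.56 beside 0.00 over all genes. The part of the neighbouring genes' level in the values of single genes was not tested.

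**Figure D4:**
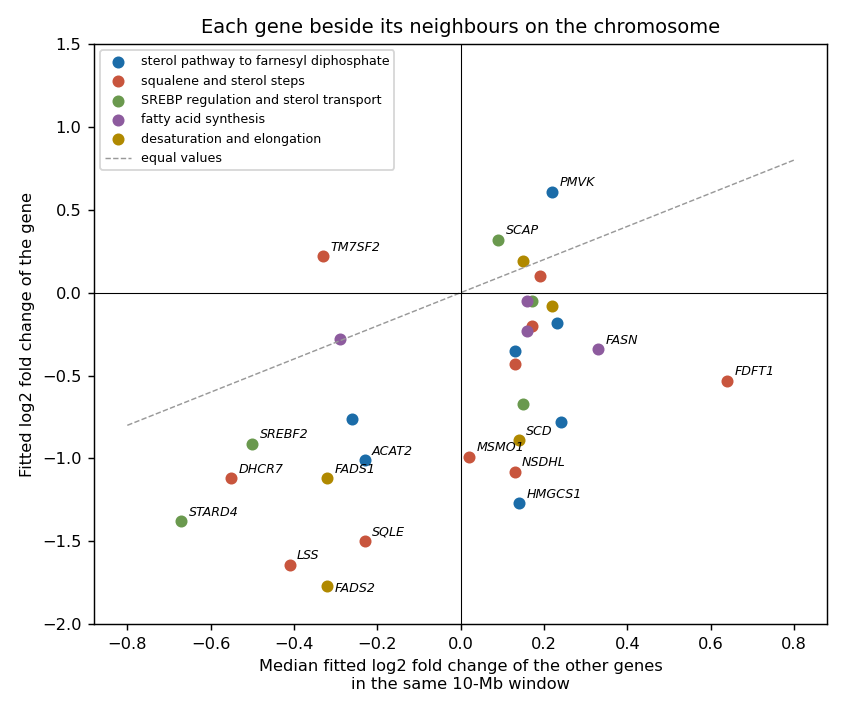
Fitted log2 fold change of each of the 31 genes (vertical axis) against the median of the other genes in its 10-Mb window (horizontal axis), coloured by role, with the dashed line at equal values. Of the 31 points 26 lie below the line, among them genes in windows on either side of 0, such as HMGCS1 at 0.14 and LSS at -0.41.

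Other genes of lipid metabolism were listed beside the synthesis genes, and their ratios lay on both sides of 0. The 47 genes covered SREBP processing, sterol export and the LXR response, sterol handling, isoprenoid branches and further fatty acid enzymes, and all were tested. Of these, 27 were higher and 20 lower by the fit, with a median log2 fold change of 0.06, and none had an adjusted p under 0.05 (edgeR). At an unadjusted p under 0.05, 2 were higher and 1 was lower, which is near the 4.85% of all genes in each direction. Both resistant libraries were above the parental library for 18 of them (38.3%) and below it for 17 (36.2%). These shares were near the 35.2% and 34.5% of all genes.

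By subgroup, the median log2 fold change was 0.09 for the 7 genes of SREBP processing, -0.35 for the 6 genes of sterol export and LXR, 0.15 for the 6 sterol handling genes, 0.11 for the 10 genes of isoprenoid branches and -0.04 for the 18 further fatty acid enzymes. MBTPS1 and MBTPS2, the proteases that release SREBPs, had log2 fold changes of -0.22 (SE 0.36) and 0.40 (SE 0.41). These values are given as a description. The higher pair comprised SCD5, a second stearoyl-CoA desaturase, at 40.9 CPM in the parental and 64.3 and 82.3 CPM in the resistant libraries, and ACSL5, an acyl-CoA synthetase, at 10.4, 49.0 and 12.6 CPM. For SCD5 both resistant libraries were above the parental one, opposite to SCD, whereas the value for ACSL5 came almost wholly from resistant library 1. The other genes in the 10-Mb window of SCD5 had a median log2 fold change of 0.66, against 0.14 around SCD. After subtraction of the window median, SCD5 stood at 0.18 and SCD at -1.03. The lower gene was LPCAT3, which places polyunsaturated fatty acids into phospholipids, at 78.8, 49.5 and 35.6 CPM. The adjusted p of these genes was 0.5, 0.5 and 0.45 in the same order (edgeR).

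**Figure D5:**
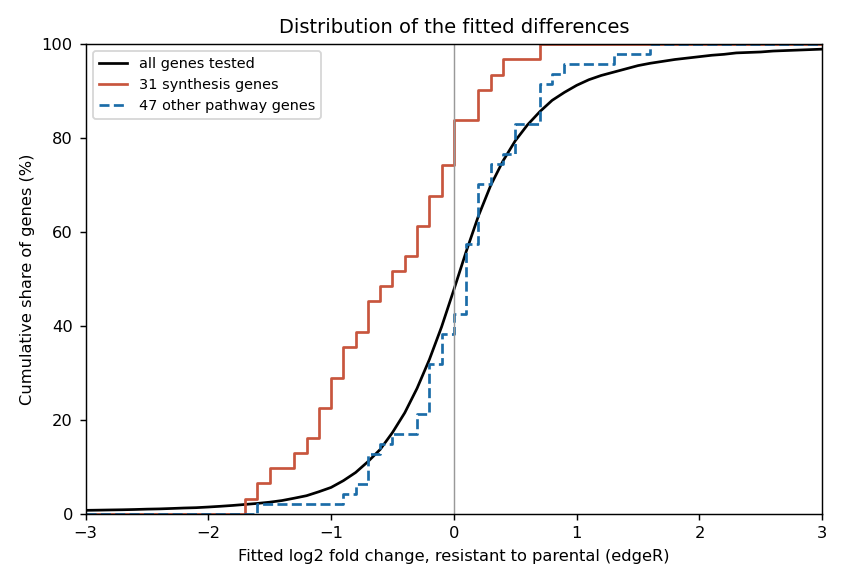
Cumulative share of genes in percent (vertical axis) at or below each fitted log2 fold change (horizontal axis), for the 31 synthesis genes, the 47 other genes of lipid metabolism and all 15643 genes tested. The curve of the synthesis genes lies left of the others, with a median of -0.53, against 0.06 and 0.03.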

How the data were processed

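RNA-Seq libraries were made from single-cell clones of 5637P and 5637GR, and Illumina sequencing was performed for the authors by a commercial provider. Per the labels, the submitters' processing notes name CASAVA 1.8 and hg19, while the aligner, the counter and the annotation are not given in the sources used here. The labels describe an unstranded and a strand-specific library kit as options, and neither the kit used nor the use of strand in counting is stated. The table that the authors deposited holds, per gene, a raw read count and an FPKM value per library. It also holds the authors' group signal, a mean of normalized counts for each line, without SD. Columns with the authors' fold changes (log2) and their raw and adjusted p-values hold their own DESeq2 comparison and were not used. Of the per-library columns, 6 without a label here were not used, 3 of read counts and 3 of FPKM.

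Raw counts of the 3 labelled libraries (14475531, 15836788 and 17461941 reads) were filtered with filterByExpr, scaled by TMM (factors 0.974, 1.03 and 0.995) and fitted in edgeR 4.0.16 (R 4.3.3) by the quasi-likelihood test, with Benjamini-Hochberg adjustment over 15643 genes and calls at 0.05. With 1 residual degree of freedom, the parental library is assumed to vary like the resistant ones, and 8.94 prior degrees of freedom were borrowed over all genes. The p-values rest on the spread between the resistant libraries, which stand for separate clones, and on the spread over all genes. That spread may hold differences between clones as well as technical ones, and none was measured in the parental line. The common biological coefficient of variation was 0.281. Log2 ratios of single libraries used a prior count of 2, and those of group means a pseudocount of 1. Window medians used the other tested genes starting in the same 10-Mb window of the table's coordinates. Counts of reads reflect counting error as well, and no count of a member was near the floor of 3 reads.

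Members, roles and lists were chosen with earlier results of these data known. All members are reported. Described in most detail were those past an adjusted p of 0.05, the 4 with the largest fitted change in each direction, the 3 with the largest difference between the resistant libraries, and members named for their role. Alternatives were median-of-ratios (RLE) size factors, no filter on low counts, DESeq2 1.42.0, the group means, window centring, leaving out each resistant library, other pseudocounts and another scaling. The fit was tested on simulated data. Promoter windows were taken from RefSeq and matched by symbol for 27 of 31 genes, and where a gene had several windows the one with most CCAAT boxes is shown.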

Additional observations from a re-analysis of the deposited data

How the results depend on the processing

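The list was lower in the resistant line under every alternative run. Every setting except the authors' group means rested on the same parental library alone. The median log2 fold change of the 31 genes was -0.53 with median-of-ratios (RLE) size factors and with DESeq2, -0.54 without a filter on low counts, -0.42 by the authors' group means, -0.56 after subtraction of the window median, and -0.75 to -0.40 when either resistant library was left out. The number of lower genes stayed between 25 and 27 of 31. Calls depended on the setting. RLE size factors called 1 synthesis gene lower (LSS, adjusted p 0.041 in edgeR), no filter called 4 (HMGCS1, SQLE, LSS and FADS2, adjusted p 0.041, 0.0049, 0.001 and 0.00028 in edgeR), and DESeq2 called 3 (SQLE, LSS and FADS2, adjusted p 0.029, 0.013 and 0.016). Over all genes, 91 lower and 46 higher calls became 139 and 96 with RLE, 261 and 273 without a filter, and 125 and 120 with DESeq2, so that the share of higher calls rose under all 3, and the cause was not tested. Without a filter the median of all genes was 0.12, against 0.03.

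The median of the SREBP group was -0.29 by the group means and -0.36 without resistant library 2 (range -0.75 to -0.36). That of fatty acid synthesis was -0.17 by the group means, -0.31 after window subtraction and -0.26 to -0.24 with either resistant library left out, and that of desaturation and elongation was -0.47 by the group means and -1.09 to -0.71 with either library left out. For the genes to farnesyl diphosphate the range was -1.01 to -0.46, and for squalene and sterol genes -1.08 to -0.59. Scaled by total count, both resistant libraries were above the parental one in 4 genes rather than 1, and below it in 22 rather than 24. With up to 1 mismatch the sterol regulatory element was found in 15 genes rather than 1. With either resistant library left out, 1 library stands against 1, so no test was made. No paired analysis was made, because no pairing of parental with resistant clones is stated and only 1 parental library was used. The synthesis genes held at least 129 reads each, whereas the libraries left 1 residual degree of freedom.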
